A study of Arabidopsis thaliana with 25 samples.

Results

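Sulfate is the form in which roots take up sulfur, and the 10 genes described here are transporters that bring it in or move it, enzymes that reduce it, and genes known to rise when sulfur runs short. They were chosen by name, as 10 of the 27206 genes counted in root RNA-Seq libraries of Arabidopsis, and their levels across soils and genotypes are given library by library. Roots came from 8-week-old plants in soil from a long-term phosphorus (P) trial that had received no P (low P), an intermediate yearly dose (medium P) or a higher one (high P). Low+P pots held low P soil and were given 12.6 mg of P during growth. The wild type was Col-0. The phf1 mutant lacks a protein that phosphate transporters need in order to reach the plasma membrane, and phr1 phl1 lacks a pair of transcription factors that drive the phosphate starvation response (PSR). Both mutants are in the Col-0 background. There were 25 libraries. For Col-0 and for phf1 they numbered 3 in each of the unamended soils (low, medium and high P) and 2 in low+P. For phr1 phl1 they numbered 2 (low P) and 1 (low+P). Each library came from the roots of a single plant by the study's methods. The counts name the group of a library but not its plot, so the letters A, B and C name the libraries within a group and have no order. By the sample labels, the phr1 phl1 and the Col-0 plants in low P shared no plot of the trial. Genotype and plot therefore cannot be told apart between these groups.

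Total counts ran from 2368981 to 7408960 per library with a median of 4391517. Levels are in CPM, which scales a gene's count by the total count of its library. PHR1, one of the genes mutated in phr1 phl1, was at 49 to 77.9 CPM in Col-0 and phf1, and in phr1 phl1 at 31.9 and 37.9 CPM with low P. The library labelled phr1 phl1 low+P held 73.6 CPM, so the labelled genotype of that 1 library is not borne out by this gene. PHL1, the other mutated gene, was not lower in the mutant: it was at 95.9 and 79.3 CPM in phr1 phl1 with low P, at 64.1 CPM in the library of that genotype labelled low+P, and at 13.9 to 87.1 CPM in Col-0 and phf1. PHF1 was at 9 to 29.1 CPM in phf1 and at 14.8 to 46.9 CPM in Col-0, so that these ranges overlapped. Transcript levels of PHL1 and PHF1 thus do not set the labelled mutants apart. The summed level of 6 root markers (CASP1, CASP2, SHR, SCR, COBL9 and PIN2) ran from 42.1 to 517 CPM, with 7 of their values at 0. It was highest in Col-0 low P C, while A and B of that group were at 70.3 and 103 CPM. The root markers did not all agree there. SHR was at 33.3 CPM in C, below 48.7 in A and 65.9 in B. Each of the other root markers had its highest value of the 25 libraries in C. The summed level of 9 leaf markers (Rubisco small subunits, photosystem genes and GAPA) was 603 to 739 CPM in phf1 medium P, 1950 CPM in phf1 high P A and as low as 42.1 CPM elsewhere, with 6 values at 0. In phf1 high P A the leaf markers did not all agree. LHCB1.3 alone held 1420 CPM there, while RBCS2B and RBCS3B were at 0.562 and 1.69 CPM, near their medians of 0.319 and 1.59 CPM. The other leaf markers were above their medians in that library. In RNA from whole roots, fewer cells of a type and less RNA per cell cannot be told apart.

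Roots take sulfate up from soil through high-affinity transporters of the plasma membrane and reduce it in plastids. There it is first activated to adenosine phosphosulfate (APS), which APS reductase reduces to sulfite on the way to cysteine and glutathione. When sulfur is short, plants are known to raise the uptake transporters and APS reductases together with a set of sulfur deficiency genes. Phosphate and sulfate supply are known to be linked, since PHR1 acts on some sulfate transporters of Arabidopsis in phosphate-starved plants.

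The 5 transporters were SULTR1;1 (AT4G08620, chr4:5500313-5506313, plus strand), SULTR1;2 (AT1G78000, chr1:29327515-29333220, plus strand), SULTR1;3 (AT1G22150, chr1:7817609-7821576, plus strand), SULTR2;1 (AT5G10180, chr5:3193017-3197136, plus strand) and SULTR3;4 (AT3G15990, chr3:5426987-5430897, plus strand). The 3 APS reductases were APR1 (AT4G04610, chr4:2324878-2327064, plus strand), APR2 (AT1G62180, chr1:22975530-22977885, minus strand) and APR3 (AT4G21990, chr4:11657008-11659167, minus strand). The sulfur deficiency genes were SDI1 (AT5G48850, chr5:19805437-19807853, minus strand) and LSU1 (AT3G49580, chr3:18374908-18375940, minus strand). Positions are those of the TAIR10.1 annotation of RefSeq. None of the 10 shared a stretch of 50 exon bases with another place in the genome. Exons of SULTR3;4, APR1, APR2 and APR3 overlap exons of genes on the opposite strand, by 140, 21, 225 and 27 bases for the protein-coding partners and by 782 bases for a long non-coding RNA at APR2. The library protocol in the paper names no step that keeps the strand, so reads in these overlaps may not be told apart. How the counting treated such reads is not given.

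Because PHR1 and its relative PHL1 are missing in 1 genotype, the 1000 bases before each gene's start were searched on both strands for P1BS, the PHR1-binding site with the letters GNATATNC. It was present before 3 members, all transporters, and in 20.3% of the same windows of 26718 genes. The matches lay 581, 38 and 97 bases before the starts of SULTR1;1, SULTR1;2 and SULTR2;1, at chr4:5499732-5499739, chr1:29327477-29327484 and chr5:3192920-3192927 of TAIR10.1, and are printed on the gene's strand with the motif in capitals. A match to these letters is a description and not a bound site.
SULTR1;1: tcgatgtgtaGTATATACgtgaatatat
SULTR1;2: aatagttgacGAATATACatttaaaaaa
SULTR2;1: ctaaaactttGGATATACactgtaattt

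The core of the sulfur-responsive element known from SULTR1;1, GAGAC, was searched in the same way. It was found before SULTR1;1, SULTR1;2, APR1 and SDI1, and before 71.6% of all genes as well. SDI1 held it 3 times, at 457, 288 and 23 bases before the start (chr5:19808306-19808310, chr5:19808137-19808141 and chr5:19807872-19807876). GAGAC lay on the strand opposite to this minus-strand gene. The 3 copies are shown on the gene's strand because their surroundings repeat, with the core in capitals as its reverse complement GTCTC.
SDI1 at 457 bases: gtggtaagaaGTCTCcaaatgacat
SDI1 at 288 bases: gtggtaagaaGTCTCcaagtgacgt
SDI1 at 23 bases: gtggtaagaaGTCTCcaagtgacgt

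Per kb of exon, 6 members were well expressed and the other 4 were far lower on average. Mean levels over the 25 libraries were 53.3 CPM per kb for APR3, 50.2 for APR1, 33.3 for SULTR1;2, 33.1 for SULTR3;4, 30.4 for SULTR2;1 and 29.4 for APR2. The other 4 were at 2.31 CPM per kb for SULTR1;1, 1.75 for SDI1, 0.211 for SULTR1;3 and 0.0733 for LSU1. Exons of all annotated transcripts were merged, which gave 4193 bases for SULTR1;2 with its 7 transcripts and 1827 for APR3. The order depends on this length: in CPM without it SULTR1;2 led, at a mean of 139 against 97.4 for APR3. SDI1 and LSU1, the sulfur deficiency genes among the members, were low in every soil and genotype. This does not hold for all their relatives on the wider sulfur list described below. There SDI2 and LSU2 had means of 13.2 and 15.9 CPM per kb, and LSU3, LSU4 and GGCT2;1 of 0.884, 1.62 and 1.45. These genes were named here after their values were seen.

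**Figure D1:**
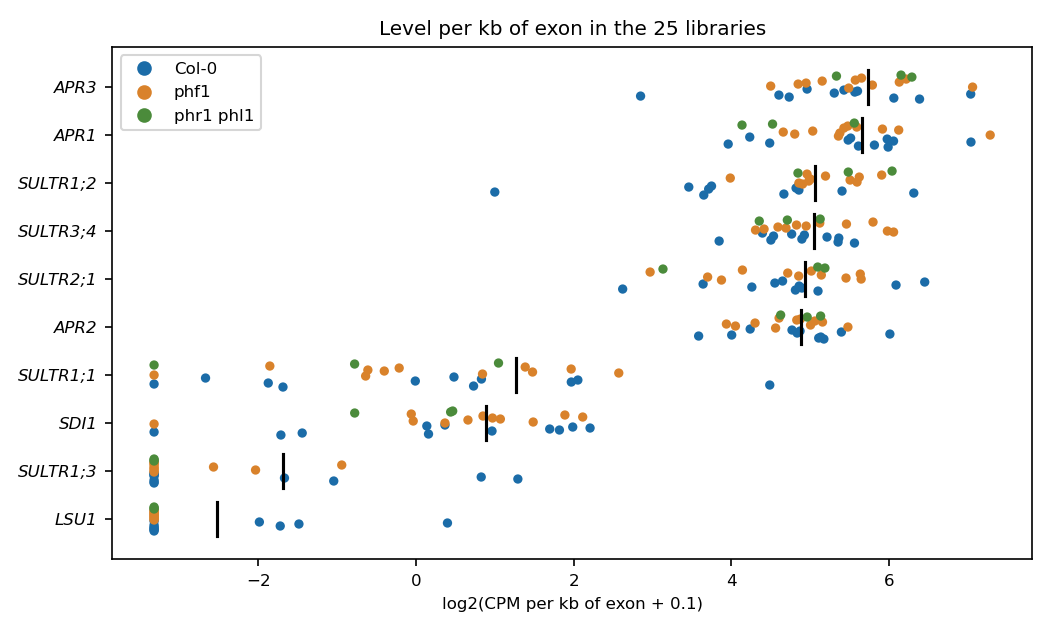
Level of each of the 10 genes in the 25 root libraries, as log2 of CPM per kb of exon plus 0.1, with 1 point per library coloured by genotype and a black line at the log2 of the mean. APR3 leads at a mean of 53.3 CPM per kb and LSU1 is last at 0.0733.

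No member passed an adjusted p of 0.1 (Benjamini-Hochberg) in any of 11 comparisons between soils and genotypes by edgeR's quasi-likelihood test, and none by DESeq2. Of the 10 members, 8 or 9 had enough reads to be tested in each, LSU1 in none. At an unadjusted p under 0.05 by edgeR there was 1 member in 1 comparison, SDI1 in Col-0 low P against high P, and none in the other 10. Over all genes the share at that level was 3.6% across the 6 groups, 7.27% and 0.898% for low P against low+P in Col-0 and in phf1, 4.65% for phf1 and 7.54% for phr1 phl1 against Col-0 in low P. It was 6.08% (1122 genes) both across the regimes of Col-0 and in Col-0 low P against high P, 1.57% across the regimes of phf1, 2.89% for phf1 low P against high P, 12% for the averaged genotype contrast and 3.42% for a differing response. With edgeR, few genes of any kind passed the adjusted threshold. Across the 6 low P and low+P groups the share was 0% of 18830. For low P against low+P it was 0.00531% (1 gene) in Col-0 and 0% in phf1. Against Col-0 in low P it was 0.00531% (1 gene) for phf1 and 0% for phr1 phl1. The shares were 0.00541% (1 of 18469) both across the 4 P regimes of Col-0 and in Col-0 low P against high P, and 0% of 18606 in both comparisons within phf1. For phf1 against Col-0 averaged over the 4 regimes the share was 0.0263% (5 of 19034), and for a regime response that differs between these genotypes it was 0%. With edgeR a member count of 0 is therefore near the background in each comparison. DESeq2 called more genes in most comparisons, as given in the last section. Its counts ran from 0 of 18830 for phf1 low P against low+P to 540 of 19034 for the averaged genotype contrast.

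**Figure D2:**
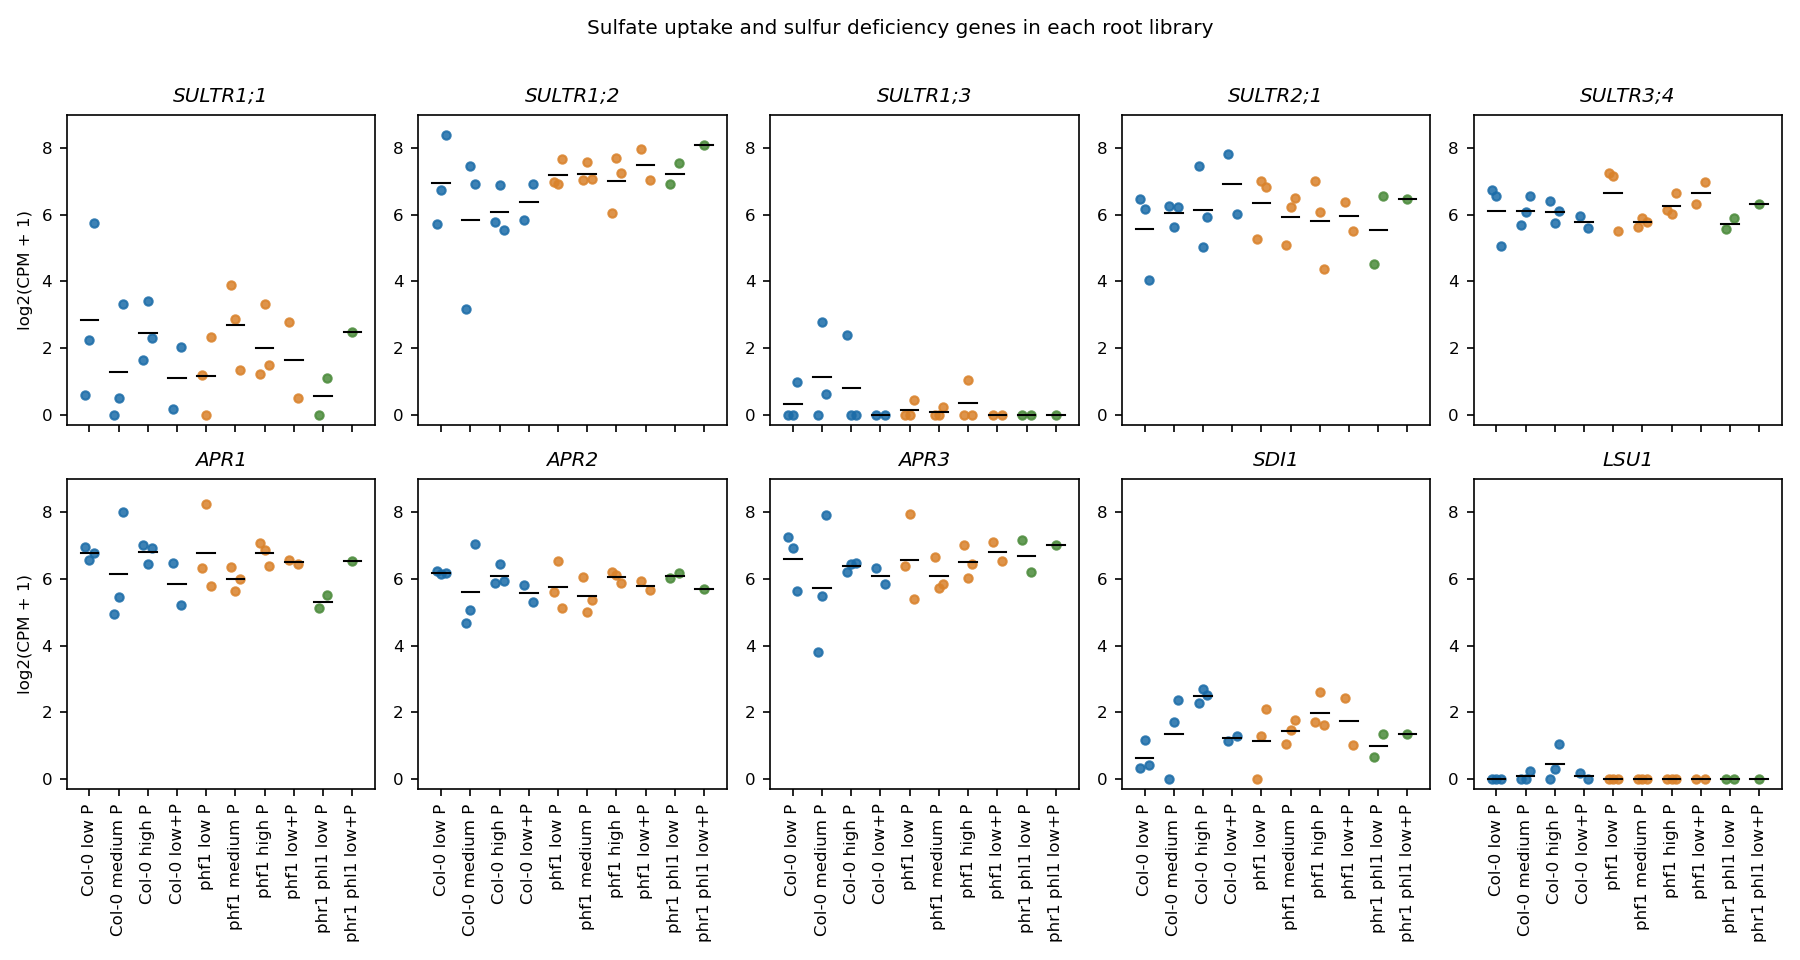
Level of each gene as log2(CPM + 1) in the 10 groups, with 1 point per library and a black line at the group's mean of these log2 values. The spread of points within groups is wide for SULTR1;1, SULTR1;2, SULTR2;1 and APR3, and SULTR1;3 and LSU1 sit at or near 0.

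SULTR1;1 encodes a high-affinity sulfate uptake transporter of the root surface that is known for its strong rise under sulfur shortage. In Col-0 it was at 0.497, 3.68 and 52.7 CPM in low P, at 0, 0.408 and 9.01 in medium P, at 2.11, 9.56 and 3.96 in high P, and at 0.135 and 3.06 in low+P. In phf1 it was at 1.28, 0 and 4 CPM in low P, at 13.8, 6.34 and 1.55 in medium P, at 1.31, 9 and 1.8 in high P, and at 5.93 and 0.417 in low+P. In phr1 phl1 it was at 0 and 1.14 CPM in low P, whereas the single library labelled phr1 phl1 low+P had 4.64 CPM. One library, Col-0 low P C, stood far above the others, and every pair of groups next to each other in mean level overlapped. Col-0 low P exceeded low+P by 3.75 on the log2 scale (SE 2.01, 95% interval -0.71 to 8.2, adjusted p = 0.757 by edgeR), by 0.38 without Col-0 low P C and by 6.87 without Col-0 low+P B. The same library moved the differences from phf1 and phr1 phl1 in low P, which were -3.42 (SE 1.69, adjusted p = 0.938 by edgeR) and -5.21 (SE 2.39, adjusted p = 0.639 by edgeR) with it and -0.07 and -1.84 without it. They were -4.82 without phf1 low P C and -9.49 without phr1 phl1 low P B.

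SULTR1;2 encodes the other main uptake transporter of the root surface. The Col-0 libraries were at 52.2, 106 and 333 CPM in low P, at 7.96, 177 and 121 in medium P, at 54.5, 118 and 45.7 in high P, and at 55.9 and 121 in low+P. The phf1 libraries were at 125, 121 and 202 CPM in low P, at 132, 190 and 134 in medium P, at 66, 206 and 153 in high P, and at 251 and 130 in low+P. The phr1 phl1 libraries were at 120 and 187 CPM in low P, whereas the single library labelled phr1 phl1 low+P had 275 CPM. The lowest and the highest value both came from Col-0, 41.9-fold apart. Averaged over the 4 regimes phf1 exceeded Col-0 by 0.62 (SE 0.406, 95% interval -0.23 to 1.48, adjusted p = 0.549 by edgeR), a difference within the spread between libraries. Low P against low+P in Col-0 gave 0.98 (SE 0.7, adjusted p = 0.866 by edgeR), which turned to -0.19 without Col-0 low P C.

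SULTR1;3 encodes the third member of the same subfamily, known from the phloem. It had 54 reads in all and was at 0 in 18 of the 25 libraries. Of the other 7, Col-0 medium P B held 29 reads (5.92 CPM) and Col-0 high P A 10 (4.22 CPM), and the remaining 5 held 1 to 6 reads, from 0.173 to 1.06 CPM. The reads thus lay mainly in 2 Col-0 libraries of different soils, and no group was above the others throughout.

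SULTR2;1 encodes a low-affinity transporter of the vascular tissue that moves sulfate from root to shoot. Col-0 roots held it at 87.5, 71.7 and 15.5 CPM in low P, at 75.9, 48.8 and 74.1 in medium P, at 174, 31.7 and 59.8 in high P, and at 224 and 64 in low+P. phf1 roots held it at 37.3, 128 and 112 CPM in low P, at 33, 73.8 and 90.1 in medium P, at 127, 67 and 19.8 in high P, and at 82.5 and 44.9 in low+P. phr1 phl1 roots held it at 22.2 and 93 CPM in low P, whereas the single library labelled phr1 phl1 low+P had 87.3 CPM. All groups overlapped their neighbours in mean level. Its largest difference among the 7 contrasts between a pair of groups or genotypes was Col-0 low P below low+P, at -1.39 (SE 0.795, 95% interval -3.15 to 0.38, adjusted p = 0.779 by edgeR), and it was -0.08 without Col-0 low+P A and -2.06 without Col-0 low+P B.

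SULTR3;4 belongs to the SULTR3 subfamily of these transporters. In rice its close relative SPDT is a phosphate transporter, and SPDT is also the name used for the Arabidopsis gene. In Col-0 it was at 107, 92.6 and 32.4 CPM in low P, at 51.2, 67.3 and 93.2 in medium P, at 84, 52.4 and 68.8 in high P, and at 61.5 and 47.5 in low+P. In phf1 it was at 151, 143 and 44.7 CPM in low P, at 48.2, 58.5 and 54.5 in medium P, at 69.9, 64.2 and 99.7 in high P, and at 78.8 and 126 in low+P. In phr1 phl1 it was at 46.2 and 59.2 CPM in low P, whereas the single library labelled phr1 phl1 low+P had 79.1 CPM. Of the 5 transporters among the members it varied least, with 4.66-fold between its extremes. In phf1 low P, libraries A and B were higher than every other library of the series and C was among the lowest, so that phf1 low P against high P came to 0.62 (SE 0.425, 95% interval -0.32 to 1.57, adjusted p = 0.999 by edgeR). The genotype difference averaged over regimes was 0.34 (SE 0.227, 95% interval -0.14 to 0.82, adjusted p = 0.561 by edgeR).

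The 3 APS reductases catalyse the step that is regarded as the main control point of sulfate reduction. APR1 in Col-0 was at 123, 94.7 and 109 CPM in low P, at 30, 43.3 and 255 in medium P, at 129, 86.5 and 122 in high P, and at 88.4 and 36.3 in low+P. In phf1 it was at 79.4, 302 and 54 CPM in low P, at 80.4, 48.8 and 63.3 in medium P, at 135, 117 and 83.3 in high P, and at 93.3 and 86.2 in low+P. In phr1 phl1 it was at 33.9 and 44.4 CPM in low P, whereas the single library labelled phr1 phl1 low+P had 91.3 CPM. The phr1 phl1 low P libraries lay below all 3 Col-0 low P libraries, a difference of -1.48 (SE 0.676, 95% interval -2.98 to 0.03, adjusted p = 0.639 by edgeR). This difference was -1.62 to -1.34 when each library was left out in turn, and it cannot be told apart from a difference between plots. Of all genes tested in that contrast, 26.7% did not overlap between the groups, 14% with the mutant lower, so 1 of 8 members is near the background. The summed level of the morning clock genes CCA1, LHY and PRR9 was 272 and 421 CPM in these phr1 phl1 libraries and 88 to 161 CPM in Col-0 low P, and their part in the APR1 difference was not tested.

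APR2 is the isoform known for most of the APS reductase activity in Arabidopsis. Levels in Col-0 were at 73.8, 70.5 and 71.8 CPM in low P, at 24.4, 32.7 and 132 in medium P, at 58.3, 86.1 and 59.8 in high P, and at 55.7 and 38.5 in low+P. Levels in phf1 were at 48.2, 91.2 and 33.8 CPM in low P, at 65.6, 31.2 and 40.2 in medium P, at 72.9, 68.1 and 58.1 in high P, and at 60 and 49.7 in low+P. Levels in phr1 phl1 were at 63.7 and 71.7 CPM in low P, whereas the single library labelled phr1 phl1 low+P had 50.4 CPM. The Col-0 low P libraries lay within 70.5 to 73.8 CPM and above both low+P libraries, but the estimated difference of 0.6 (SE 0.377, 95% interval -0.24 to 1.43, adjusted p = 0.82 by edgeR) did not pass. APR1 likewise did not overlap there, with 0.77 (SE 0.649, 95% interval -0.67 to 2.21, adjusted p = 0.908 by edgeR). The APR1 value was 0.22 without Col-0 low+P B and 1.68 without Col-0 low+P A. These 2 of 8 tested members compare with 19.1% of all genes not overlapping in that contrast, 8.37% being higher in low P.

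APR3, the third isoform, was the most variable of the 3. In Col-0 it was at 153, 122 and 48.5 CPM in low P, at 13, 44.3 and 240 in medium P, at 72.2, 86.5 and 88.6 in high P, and at 78.6 and 56.8 in low+P. In phf1 it was at 82, 244 and 41.2 CPM in low P, at 101, 52.5 and 56.3 in medium P, at 128, 64.9 and 86.9 in high P, and at 136 and 91.8 in low+P. In phr1 phl1 it was at 143 and 73.6 CPM in low P, whereas the single library labelled phr1 phl1 low+P had 130 CPM. Medium P held both extremes of Col-0, and APR3 overlapped between the groups in all 6 contrasts of group pairs. No member was free of overlap in phf1 low P against low+P, in phf1 against Col-0 in low P or in phf1 low P against high P, where 12.3%, 7.43% and 5.31% of all genes were. Unlike APR1 it gave 0.06 between phr1 phl1 and Col-0 in low P (SE 0.673, 95% interval -1.43 to 1.56, adjusted p = 0.977 by edgeR). Whether the APR1 and APR3 differences differ from each other was not tested.

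SDI1, a sulfur deficiency induced gene that acts on glucosinolate synthesis, had the largest share of its variance between groups among the members above 1 CPM, at very low counts. In Col-0 it was at 0.248, 1.23 and 0.324 CPM in low P (1, 4 and 1 reads), at 0, 2.24 and 4.15 in medium P, at 3.8, 5.47 and 4.68 in high P (9, 24 and 13 reads), and at 1.21 and 1.44 in low+P. In phf1 it was at 0, 1.44 and 3.27 CPM in low P, at 1.06, 1.79 and 2.42 in medium P, at 2.25, 5.12 and 2.06 in high P, and at 4.36 and 1.04 in low+P. In phr1 phl1 it was at 0.585 and 1.52 CPM in low P, whereas the single library labelled phr1 phl1 low+P had 1.55 CPM. All Col-0 high P libraries lay above all Col-0 low P libraries, with -2.82 for low against high P (SE 1.06, 95% interval -5.19 to -0.46, unadjusted p = 0.024 and adjusted p = 0.776 by edgeR's quasi-likelihood test). That contrast put 12.7% of all genes apart, 8.8% in this direction, and 1 of 9 tested members. In phf1 the same contrast was -0.87 (SE 0.9, 95% interval -2.86 to 1.13, adjusted p = 0.999 by edgeR), with overlapping libraries. It was -2.06 without phf1 low P C and -0.35 without phf1 low P A, and the Col-0 value was -3.75 without Col-0 low P B. The regime response did not differ between the genotypes past the threshold (adjusted p = 1 by edgeR). Root markers summed to 176 to 286 CPM in Col-0 high P and to 70.3, 103 and 517 CPM in low P, and their part in the SDI1 difference was not tested.

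LSU1, named for its response to low sulfur, was nearly absent. It had 6 reads in all, 1 in Col-0 medium P C, 1 in Col-0 high P B, 3 in Col-0 high P C and 1 in Col-0 low+P A, and was at 0 in the other 21 libraries. Pooled over the libraries this is 0.0544 CPM, with an exact 95% Poisson interval of 0.0199 to 0.118 CPM that covers counting error only. In 1 library, 3 reads, taken as the upper limit that a count of 0 allows, correspond to 0.405 to 1.27 CPM depending on depth.

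Libraries of the same group differed more for most members than for most genes. The SD within groups on log2(CPM + 1) was 1.54 for SULTR1;1, 1.12 for SULTR1;2, 1.07 for SULTR2;1, 1 for APR3, 0.83 for APR1, 0.72 for SDI1, 0.59 for APR2 and 0.57 for SULTR3;4. The median over the 18779 genes with a mean of at least 1 CPM was 0.44, and 66% to 98.5% of these genes had a smaller SD than the members. Of the variance of each member, 16.5% (SULTR2;1) to 47.7% (SDI1) lay between the 10 groups, against a median of 37.1% over the same genes. This share is not corrected for the number of groups. With 10 groups among 25 libraries it lies well above 0 even where groups do not differ, so it is no estimate of a soil or genotype effect. SDI1 was the only one of these 8 members above that median. The extremes were often the same libraries: Col-0 medium P A was lowest in SULTR1;2, APR1, APR2 and APR3, and Col-0 low P C was highest in SULTR1;1 and SULTR1;2 and lowest in SULTR2;1 and SULTR3;4.

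**Figure D3:**
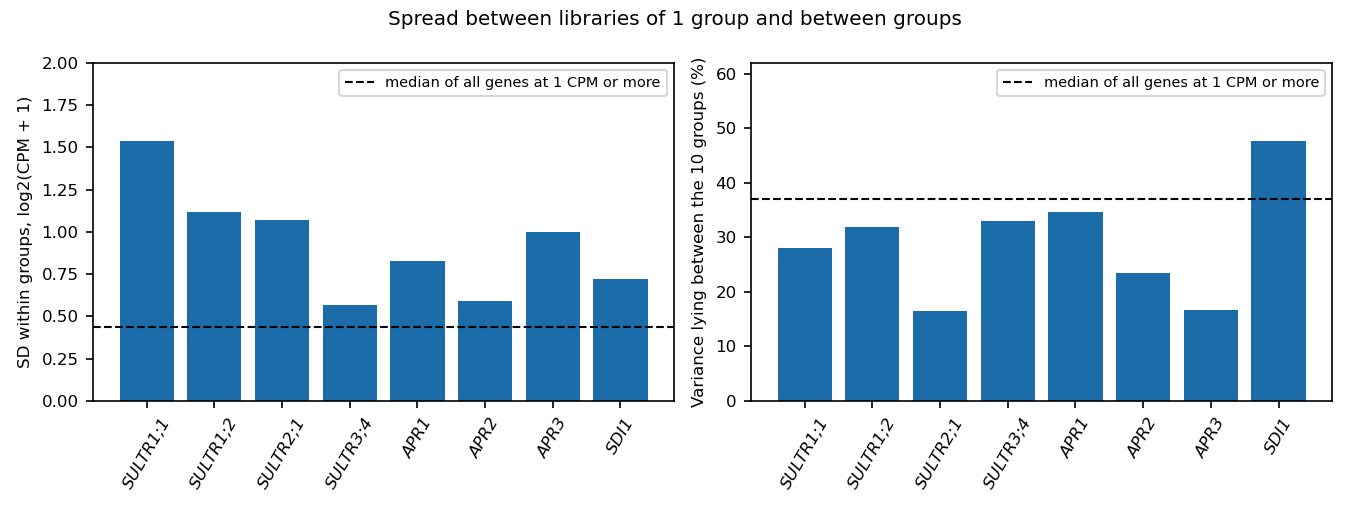
Bars give, for the 8 members with a mean of at least 1 CPM, the SD between libraries of the same group on log2(CPM + 1) (left) and the percent of variance between the 10 groups (right), with the all-gene medians of 0.44 and 37.1% as dashed lines. All 8 bars on the left exceed the line, and only SDI1 exceeds it on the right.

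The intervals show how large a difference these libraries could hide. For the genotype contrast averaged over regimes, 7 of the 8 members with an estimate had intervals within 1.48 either side of 0 on the log2 scale, and SULTR1;1 had -2.14 to 1.36. The estimates were -0.39 for SULTR1;1, 0.62 for SULTR1;2, -0.2 for SULTR2;1, 0.34 for SULTR3;4, 0.04 for APR1, -0.14 for APR2, 0.18 for APR3 and 0.41 for SDI1. SULTR1;3 passed the filter there but its fold could not be estimated from its few reads. The median of these 8 estimates was 0.11 beside -0.01 over all genes. For wild-type roots, low P against low+P put 6 of 8 members above 0 with a median of 0.61 beside 0.02 over all genes, and 52.2% of all genes were above 0. In phf1 the members' median was 0.06 beside 0.02. These medians carry no test, and both low P against low+P contrasts rest on 2 libraries on the low+P side.

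**Figure D4:**
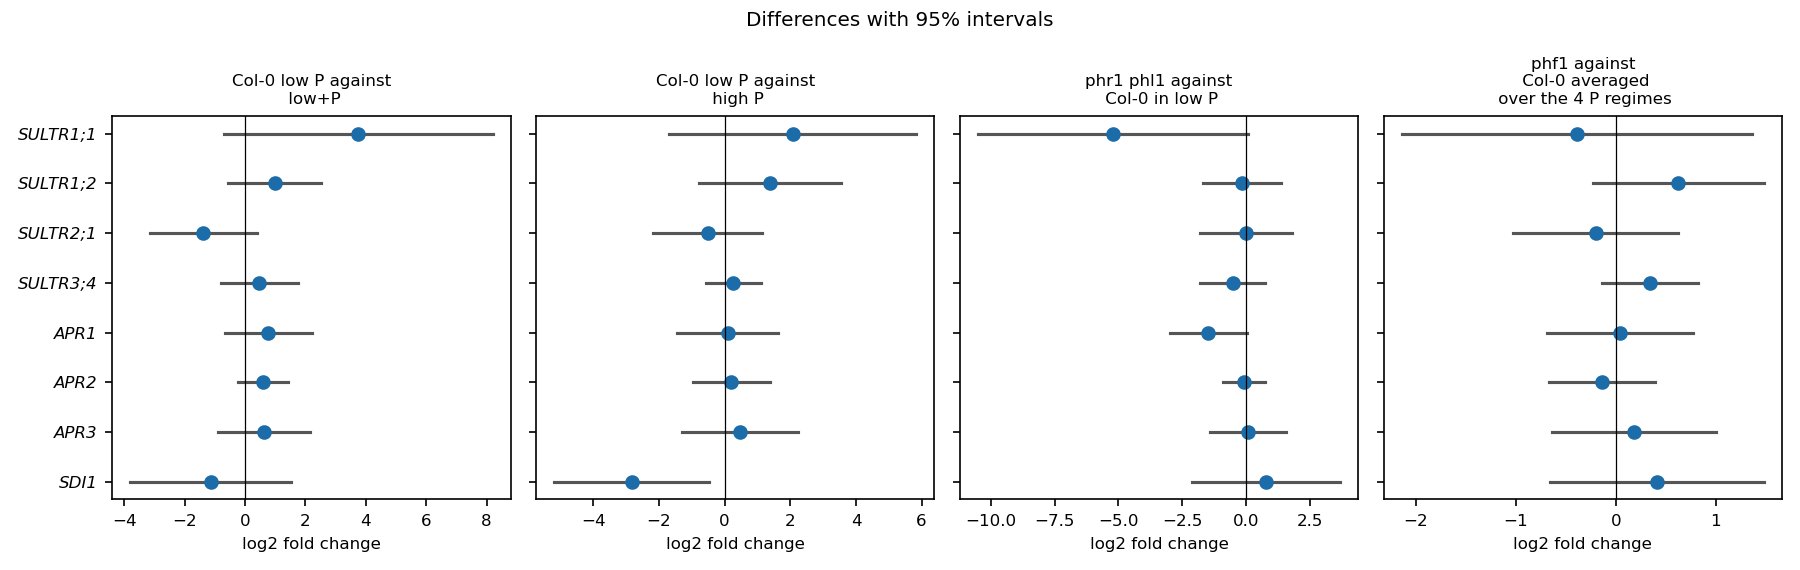
Log2 fold changes (points) with 95% intervals (lines) of 8 members in 4 contrasts, where values above 0 are higher in the group named first. All intervals but that of SDI1 in Col-0 low P against high P (-5.19 to -0.46) cross 0.

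Across the 25 libraries the 3 APS reductases varied together. Spearman's rho on log2(CPM + 1) was 0.7 for APR1 with APR2, 0.56 for APR1 with APR3 and 0.66 for APR2 with APR3, and Pearson's r was 0.75, 0.69 and 0.8. In the 22 Col-0 and phf1 libraries rho was 0.86, 0.71 and 0.76. The phr1 phl1 low P libraries lay off this relation, with APR1 at 33.9 and 44.4 CPM beside APR2 at 63.7 and 71.7 CPM. SULTR3;4 was next in likeness to APR1 and APR3, with rho of 0.54 and 0.56. Over all 28 pairs of the 8 better-measured members the median rho was 0.17 and the highest was 0.7, that of APR1 with APR2. All these values share libraries and depth and are given as descriptions. The APS reductases were lower where morning genes of the clock exceeded 5 evening genes (ELF3, ELF4, GI, LUX and TOC1), with rho of -0.52 for APR1, -0.39 for APR2 and -0.4 for APR3 over the 25 libraries. Within the 11 Col-0 libraries these were -0.44, -0.55 and -0.25, and within the 11 phf1 libraries -0.79, -0.85 and -0.83. The part of the time of day in this spread was not tested.

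SULTR1;1 and SDI1 varied with the root markers. The mean log2 level of the 6 markers had a rho of 0.85 and an r of 0.84 with SULTR1;1, and a rho of 0.87 within Col-0, of 0.9 within phf1 and of 0.83 without Col-0 low P C. For SDI1 rho was 0.65, and 0.81 without Col-0 low P C, which was the highest library in root markers and among the lowest in SDI1. Within Col-0 and within phf1 the rho of SDI1 was 0.64 and 0.65. SULTR1;2 had a rho of 0.4 with the markers over all libraries, and of 0.64 within Col-0 and 0.75 within phf1. SULTR2;1 had -0.27, with -0.75 in Col-0 and -0.22 in phf1, and SULTR3;4 had -0.32, with -0.15 and -0.72. For APR1, APR2 and APR3 rho was 0.27, 0.22 and -0.18 in all, 0.34, 0.56 and 0.12 in Col-0, and -0.14, 0.01 and -0.27 in phf1. The relation of these 6 genes to the root markers thus varied with the libraries used. With the 9 leaf markers rho was 0.47 for SULTR2;1, 0.36 for APR3 and 0.1 to 0.22 for the other members above 1 CPM. Within Col-0 it was 0.67 for SULTR2;1, 0.66 for APR3 and 0.65 for SULTR3;4, and within phf1 0.32, 0.28 and -0.44. The 5 genes most like SULTR1;1 among 18771 were AT3G01190 (rho 0.93, 3.45 to 1110 CPM), UGT74F2 (0.92), AT4G33110 (0.92), AT2G21045 (0.91) and the aquaporin-family gene NIP3;1 (0.91). Those most like SDI1 were ADAP (0.86), ARAC5 (0.85), AT4G24130 (0.83), PDCB5 (0.82) and AT5G07475 (0.82). None of the 10 belongs to the sulfur genes listed here.

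**Figure D5:**
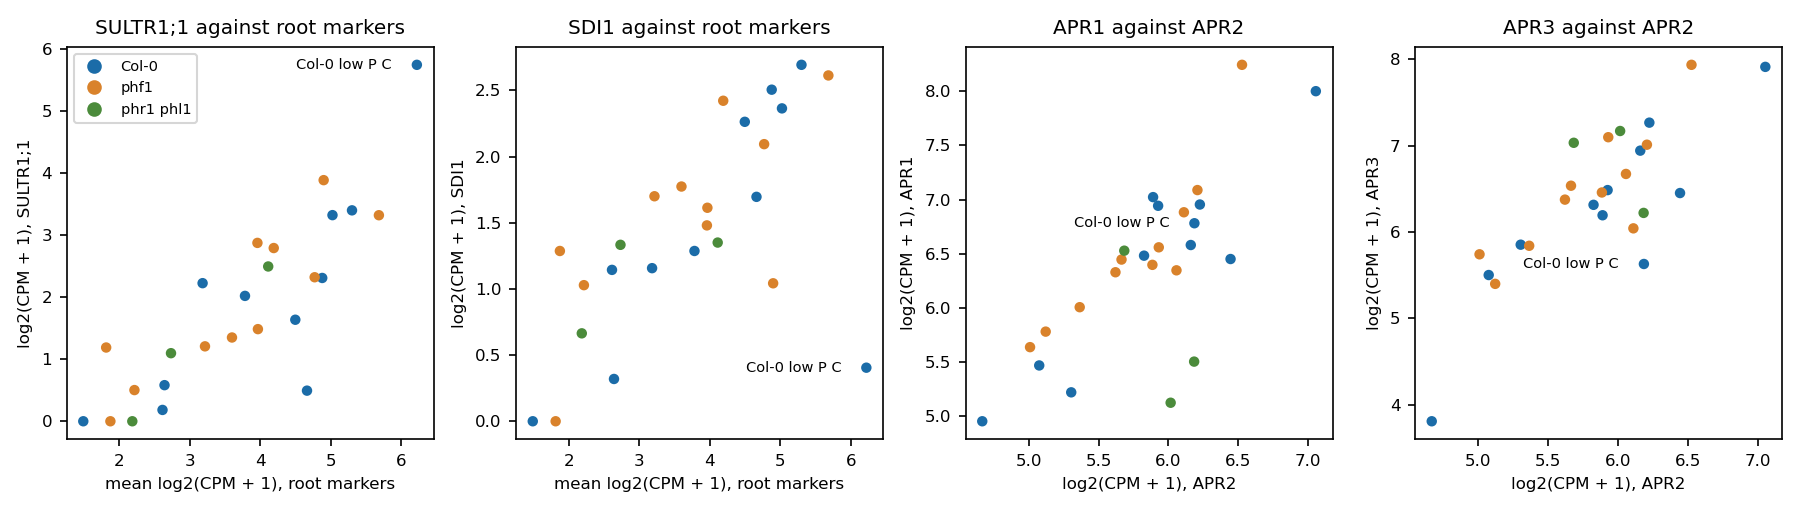
Each point is 1 of the 25 libraries, coloured by genotype, with log2(CPM + 1) on the y axes and the mean log2(CPM + 1) of the 6 root markers or log2(CPM + 1) of APR2 on the x axes. SULTR1;1 and SDI1 rise with the root markers (rho 0.85 and 0.65), and APR1 and APR3 rise with APR2 (rho 0.7 and 0.66). Col-0 low P C lies off the SDI1 trend, with the highest marker level and SDI1 at 0.324 CPM.

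A wider list of 35 further sulfur genes, covering transport, ATP sulfurylase, APS kinase, sulfite reductase, cysteine and glutathione synthesis, sulfur deficiency and the regulator SLIM1, held 30 or 31 tested genes per comparison. None was called with edgeR's quasi-likelihood test in any of the 11. At an unadjusted p under 0.05 there were 6 of 31 in Col-0 low P against high P, beside 6.08% of all genes, and 0 to 3 in each of the others. A pair of them pointed the same way as SDI1. LSU4, a relative of LSU1, gave -1.91 (SE 0.764, adjusted p = 0.776 by edgeR) and GGCT2;1, a glutathione-degrading enzyme known from the same deficiency response, gave -2.36 (SE 1.02, adjusted p = 0.819 by edgeR). Without Col-0 low P A these were -3.04 and -4.16, and without Col-0 low P B -1.55 and -1.8. LSU4 was at 1.49, 0.307 and 0.324 CPM in Col-0 low P and at 4.64, 2.5 and 2.16 CPM in high P. GGCT2;1 was at 1.49, 0 and 0.324 CPM in Col-0 low P and at 3.8, 3.64 and 3.6 CPM in high P, and was named after its values were seen.

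SERAT2;2, a mitochondrial serine acetyltransferase that makes the precursor of cysteine, pointed the other way. It was at 175, 121 and 125 CPM in Col-0 low P and at 69.2, 78.8 and 71.7 CPM in high P, a difference of 1.07 (SE 0.22, 95% interval 0.57 to 1.56, adjusted p = 0.626 by edgeR's quasi-likelihood test and 0.00506 by DESeq2, both with Benjamini-Hochberg adjustment). The call thus depends on the tool. ATPS1, GSH1 and GSH2, the other 3 of the 6, were at 1.03 (SE 0.372), 0.83 (SE 0.355) and 0.71 (SE 0.288), with adjusted p of 0.776, 0.819 and 0.786 by edgeR, and were likewise named after their values were seen. The low P libraries of these 3 genes lay above those of high P, and for GSH2 the gap was only that between 98 and 97.9 CPM. Over all genes 3.89% lay so. The 3 genes were picked by their p in this same contrast, so the lack of overlap adds no support and that share is no yardstick for them. SERAT2;1, the plastid serine acetyltransferase, was at 51.2, 36.5 and 44.7 CPM in Col-0 low P and at 16.5 and 25 CPM in low+P, a difference of 1.11 (SE 0.309, adjusted p = 0.416 by edgeR and 0.0693 by DESeq2).

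Among transporters outside the members, SULTR3;1, a chloroplast sulfate transporter, was lower in phf1 than in Col-0 by an average of -2.62 (SE 0.682, 95% interval -4.06 to -1.19, adjusted p = 0.167 by edgeR and 0.0104 by DESeq2), and by -3.36 to -1.97 with each library left out in turn. Col-0 medium P B (28.2 CPM), Col-0 high P C (14.8 CPM) and Col-0 low+P A (7.29 CPM) held its highest levels, and the phf1 libraries ran from 0 to 3.9 CPM. The remaining Col-0 libraries, at 0.683 to 3.68 CPM, lay within that range of phf1. In the same contrast SERAT2;2 was at 0.32 (SE 0.113, adjusted p = 0.283 by edgeR) and ATPS2, an ATP sulfurylase, at -0.29 (SE 0.109, adjusted p = 0.309 by edgeR). SULTR4;2, which releases sulfate from the vacuole, gave 1.19 in phf1 low P against high P (SE 0.422, adjusted p = 0.999 by edgeR), and 0.58 without phf1 low P B.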

How the data were processed

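Per the labels and the paper, the authors trimmed reads, mapped them to TAIR10 with HISAT2 2.1.0 and counted them per gene with featureCounts, whose strand setting is not given in the sources used here. The authors deposited raw counts of reads per gene, in whole numbers and without normalization. The columns name a genotype and soil but no replicate or plot.

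Genes were filtered with filterByExpr, TMM-normalized and tested with edgeR 4.0.16 (R 4.3.3) by its quasi-likelihood test with Benjamini-Hochberg adjustment over all genes, in 4 fits of 18469 to 19034 genes and 11 to 22 libraries. Calls used an adjusted p under 0.1. Fold changes had a prior count of 0.125, their standard error is the log2 value over the root of its F statistic, and intervals use the t quantile of the test. CPM, group levels and correlations (pseudocount 1 CPM) used total counts. Alternatives were DESeq2 1.42.0, RLE factors, other filters, 1 fit of all libraries, a threshold of 0.05, TMM-scaled levels and each library left out. The code was tested on simulated counts.

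The members and lists were chosen with earlier results of these data known. By rule the text names all 10 members, the 3 other sulfur genes with the smallest p across the regimes of Col-0, of phf1 and between them, and the 5 genes most like SDI1 and SULTR1;1. TAIR10.1 of RefSeq gave positions and sequences, with 26719 of 27206 identifiers matched. One root marker of the original list is not reported here, and the marker values were computed without it.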

Additional observations from a re-analysis of the deposited data

How the results depend on the processing

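No member was called in any of the 11 comparisons under DESeq2, RLE size factors, either other filter, 1 fit of all 25 libraries, a threshold of 0.05 or the leaving out of any 1 library. The count of all genes called did move. DESeq2 called 209 genes across the 6 low P and low+P groups, 289 between low P and low+P of Col-0, 29 in phf1 against Col-0 in low P, 183 in phr1 phl1 against Col-0 in low P, 370 across the regimes of Col-0, 151 in Col-0 low P against high P, 2 across the regimes of phf1, 6 in phf1 low P against high P, 540 in phf1 against Col-0 averaged over regimes and 14 for a response differing between them, where edgeR called 0 to 5. With a threshold of 0.05 edgeR called 0 between low P and low+P of Col-0 and 0 in phf1 against Col-0 in low P. One fit of all 25 libraries called 14 in the averaged genotype contrast, 1 across the 6 groups and 0 in the Col-0 comparisons that had 1. Without Col-0 medium P C edgeR called 253 genes in the averaged genotype contrast, and 2 without Col-0 low+P A.

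Directions turned only when a library was left out, and the cause was not tested. Between low P and low+P of Col-0, SULTR1;2 ran from -0.19 to 1.53 on the log2 scale, negative only without Col-0 low P C, and SULTR1;1 ran from 0.38 to 6.87 without turning. For phf1 against Col-0 averaged over regimes, SULTR1;1 ran from -1.09 to 0.5, SULTR2;1 from -0.4 to 0.13, APR1 from -0.22 to 0.41, APR2 from -0.25 to 0.12 and APR3 from -0.06 to 0.6. APR3 in phr1 phl1 against Col-0 in low P ran from -0.57 to 0.5. SDI1 in Col-0 low P against high P stayed between -3.75 and -2.43, with adjusted p of 0.343 by DESeq2 and of 0.421 or more by edgeR without any 1 library. DESeq2 called SERAT2;2, SERAT2;1 and SULTR3;1 as given above, and edgeR called SULTR3;1 in the averaged contrast at an adjusted p of 0.078 without Col-0 medium P C. The median rho between members was 0.17, and it was 0.23 with Pearson's r, 0.13 in the 22 Col-0 and phf1 libraries and, in checks added after seeing the data, 0.14 without Col-0 low P C and 0.11 without Col-0 medium P A. Levels on TMM-scaled library sizes moved by less than the spread within groups for all 10 members. No paired analysis was possible because the columns of the counts carry neither replicate number nor plot. Where 1 library of a group is left, it is assumed to vary like the other groups.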
